A study of Mus musculus with 30 samples.

Results

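Cytochrome P450 genes encode haem enzymes that oxidise steroids, fatty acids, vitamins and foreign compounds. Their members here are the rows of the gene count table whose symbol begins with Cyp and a number, leaving out *Cyp51* and pseudogenes marked -ps. The rule found 100 of 55401 genes, one of which, *Cyp4x1os*, is an antisense transcript and not an enzyme gene. RNA came from gonadal white adipose tissue (gWAT) of 30 female NZO/HIBomDife mice, an inbred strain with polygenic obesity. The mice were 10 weeks old and had eaten a high-fat diet for 5 weeks when a risk score placed 15 in the diabetes-prone (DP) group and 15 in the diabetes-resistant (DR) group, which is the control. The labels name no further allele or agent, and tissue was taken before hyperglycaemia, so the class of a mouse is a prediction. Each mouse gave 1 library.

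P450 enzymes sit in the endoplasmic reticulum or the mitochondrion and receive electrons from partner proteins. In the liver, families 1 to 3 oxidise drugs and other foreign compounds, whereas family 4 adds hydroxyl groups to the end of fatty acid chains. Other P450s make bile acids and steroid hormones, activate vitamin D or clear retinoic acid. Adipose tissue is not a main site of drug oxidation, but fat cells and the stromal cells around them use P450s on fatty acids, sterols and oestrogens.

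Levels are given as CPM, a gene's count scaled to the size of its library after TMM adjustment. The libraries held 28146906 to 29974243 counts, and a count of 0 allows up to 3 counts, which is 0.0992 to 0.1085 CPM depending on the library and covers counting error only. One library, DR replicate 7, held liver transcripts: albumin (*Alb*) stood at 4367 CPM there and at 36.5 CPM or less in the other 29, and all 24 hepatocyte markers were highest in it. Because many P450 genes are liver genes, the comparisons of the groups and the relations within DR were made with and without this library. Adipocyte markers were abundant in every library, their summed level being 35050 to 45750 CPM in DP and 46600 to 55230 in DR. In bulk tissue, fewer cells of a type and less RNA per cell cannot be told apart.

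Of the 100 members, 14 had no count in any library, among them the aromatase gene *Cyp19a1*, the vitamin D catabolic gene *Cyp24a1* and the aldosterone synthase gene *Cyp11b2*. The filter on low counts passed 30 members and left 56 with some counts untested. It asks for about 0.3497 CPM in at least 14 of the 30 libraries, and 27 of the 30 reached that in at least 13 libraries of each group. The exceptions were *Cyp2f2*, *Cyp4f14* and *Cyp2b23*, which reached it in 6, 3 and 8 DP libraries and in 8, 11 and 13 DR libraries. In edgeR's quasi-likelihood test, adjusted over the 17482 genes tested, 5 members were higher in DP, 11 were lower and 14 were not called. Among all genes tested, 28.2% were called higher and 27.3% lower, so the 16 of 30 members called are near the share that this background gives. At a fold of at least 1.5, 3 members were higher and 5 lower, against 7.09% and 4.6% of all genes tested. The 5 lower include *Cyp2f2*, *Cyp4f14* and *Cyp2b23*, and without DR replicate 7 the counts at this fold were 3 and 4. At any fold, the calls without DR replicate 7 were 5 higher and 10 lower, beside 26.8% and 28.4% of all genes. The median log2 fold change was -0.09 over the tested members and -0.0056 over all genes tested. The member that differed most between the groups once DR replicate 7 was set aside was *Cyp2e1*.

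*Cyp2e1* (chr7:140763739-140774987, plus strand, GRCm38) encodes the P450 that oxidises ethanol, acetone and small solvents. Its lowest, median and highest levels were 9.505, 24.7 and 75.9 CPM in DP and 85.03, 272.5 and 887.9 CPM in DR. The groups did not overlap: the highest DP library, replicate 6, lay below the lowest DR library, replicate 9. Groups failed to overlap for 2.89% of all genes tested, and *Cyp2e1* was the single tested member of this kind. The level was 9.86-fold lower in DP (log2 fold change -3.30 ± 0.331 SE, adjusted p = 2.21e-09). DR replicate 11 stood highest of all libraries, and DR replicate 7, with the liver transcripts, came next at 436.4 CPM. Without DR replicate 7 the fold was 9.59 (adjusted p = 4.07e-09) and the groups stayed apart. Of 18 adipocyte markers 17 were lower in DP as well, and their part in this difference was not tested.

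*Cyp2e1* also varied more within each group than most tested members. DR replicates 8, 9, 12 and 13 held 104.5, 85.03, 106.3 and 90.2 CPM, whereas replicates 2, 6 and 14 held 400.8, 355.6 and 302.2. The highest library exceeded the lowest 10.4-fold in DR and 7.99-fold in DP. Its coefficient of variation was 60.5% in DP and 75.1% in DR without replicate 7. The orphan *Cyp20a1*, a P450 with no known substrate, had 6.91% and 5.87% by the same measure. *Cyp2e1* made up 31.7% ± 13.3 (SD, n = 14) of the summed CPM of all members in DR without replicate 7 and 5.56% ± 2.77 (n = 15) in DP. The summed level of the other members was 472.7 ± 35.25 CPM in DP and 506.8 ± 37.4 in DR without replicate 7.

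**Figure D1:**
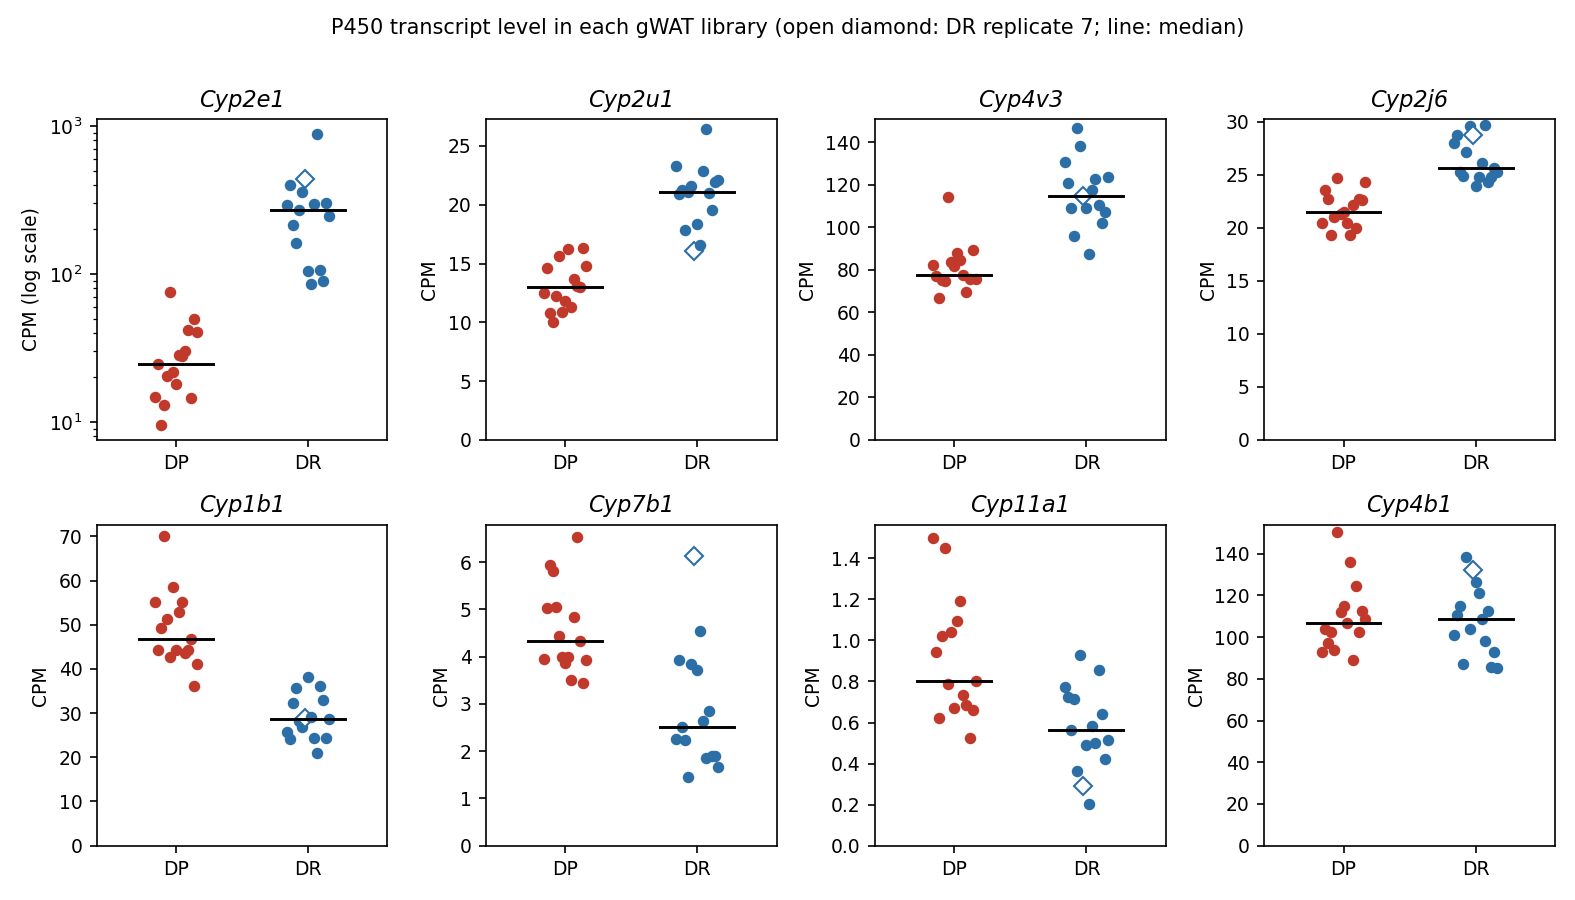
CPM of 8 P450 genes in each of the 15 DP (red) and 15 DR (blue) libraries, with the median as a line, DR replicate 7 as an open diamond and a log axis for *Cyp2e1* only. *Cyp2e1* parts the groups without overlap, *Cyp1b1* lies higher in DP, and *Cyp4b1* takes the same range in both, with medians of 106.9 and 108.5 CPM.

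The promoters of the 3 members that were called with the smallest adjusted p and that have an entry in RefSeq's promoter table (GRCm38.p6) are shown so that a reader can see the DNA around the start of each. *Cyp2u1* has no entry and is named only. Each run covers 250 bases before and 50 after the RefSeq start on the gene's own strand, and capitals mark the TATA box core (TATAAA) or the dioxin response core (GCGTG) on either strand. The regions are chr7:140763569-140763868, plus strand, chr8:45333114-45333413, minus strand, and chr17:79715012-79715311, minus strand, in that order.
Cyp2e1: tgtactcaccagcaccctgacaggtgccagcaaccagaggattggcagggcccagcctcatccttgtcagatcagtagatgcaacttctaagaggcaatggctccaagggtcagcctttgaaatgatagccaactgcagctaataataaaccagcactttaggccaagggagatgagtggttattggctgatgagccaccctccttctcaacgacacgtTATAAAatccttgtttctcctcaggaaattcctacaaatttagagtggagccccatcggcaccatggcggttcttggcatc
Cyp4v3: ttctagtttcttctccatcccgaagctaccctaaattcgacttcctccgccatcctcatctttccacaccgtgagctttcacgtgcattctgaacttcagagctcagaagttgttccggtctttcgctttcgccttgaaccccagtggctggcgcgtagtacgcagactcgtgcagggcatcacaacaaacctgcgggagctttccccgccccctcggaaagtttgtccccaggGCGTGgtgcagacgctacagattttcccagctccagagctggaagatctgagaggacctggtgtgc
Cyp1b1: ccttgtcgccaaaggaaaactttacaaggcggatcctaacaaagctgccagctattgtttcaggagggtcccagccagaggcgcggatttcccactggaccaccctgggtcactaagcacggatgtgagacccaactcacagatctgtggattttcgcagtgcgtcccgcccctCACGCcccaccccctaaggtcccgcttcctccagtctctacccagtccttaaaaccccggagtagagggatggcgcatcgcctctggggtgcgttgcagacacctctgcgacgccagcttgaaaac

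The TATA box core stood in the *Cyp2e1* window with its first base at -31 from the start base, and neither *Cyp4v3* nor *Cyp1b1* held it. The dioxin response core, which the aryl hydrocarbon receptor binds, stood once in the *Cyp4v3* window and once, on the other strand, in that of *Cyp1b1*, and was not in that of *Cyp2e1*. Over all 32851 windows of this length in the table, 13.6% held the first motif and 32.4% the second. Of the 23 tested members with at least 1 window, 3 held the first and 10 the second in any window. The nuclear receptor half-site AGGTCA stood in 4 of the 23 members and in 16.3% of all windows. The HNF1 half-site GTTAAT stood in 1 of the 23 members and in 7.1% of all windows. All 4 motifs were searched on both strands, and none contains another. A match is a description of the sequence and not a bound site.

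Family 2, counted here without the vitamin D enzyme *Cyp2r1*, holds 48 members, many of them drug-oxidising liver enzymes, and 11 were tested. *Cyp2r1* is a family 2 gene by its symbol, was called higher in DP and is given below with the vitamin D group. None of these 11 was called higher in DP by edgeR, DESeq2 or limma-voom, nor at an unadjusted p below 0.05. Of them, 8 were lower and 3 were not called. Without DR replicate 7, 7 were lower. Over all genes tested, 27.3% were lower with all libraries and 28.4% without that one. *Cyp2u1* (chromosome 3), which hydroxylates long-chain fatty acids such as arachidonic acid, stood at 10.04, 13.04 and 16.3 CPM in DP and 16.1, 21.1 and 26.5 CPM in DR. Only the lowest DR and the highest DP libraries met: DR replicate 7 at 16.1 CPM lay within the DP range, and without it the groups did not overlap. The gene was 1.58-fold lower in DP (log2 fold change -0.66 ± 0.0733 SE, adjusted p = 1.03e-08). Its exons overlap those of 4930534D22Rik on the other strand.

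Neighbouring genes of the epoxygenase subfamily, which acts on arachidonic and linoleic acid, were lower as well. *Cyp2j6* stood at 19.3, 21.45 and 24.7 CPM in DP and 23.9, 25.6 and 29.7 CPM in DR, so that the ranges met only at their edges. It fell by 0.28 on the log2 scale ± 0.0409 SE (adjusted p = 7.12e-07). *Cyp2j9*, which lies next to it on chromosome 4, stood at 4.27, 5.11 and 6.85 CPM in DP and 5.455, 7.32 and 8.99 CPM in DR (log2 fold change -0.44 ± 0.07235 SE, adjusted p = 5.50e-06). Every DP library lay below the DR median for both genes. The other 6 members of this chromosome 4 cluster did not pass the filter, and 3 of them had no count.

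*Cyp2d22*, the mouse member most often set beside human CYP2D6, stood at 19.9, 25.3 and 37.1 CPM in DP and 24.3, 31.25 and 40.02 CPM in DR. The ranges overlapped widely, with 13 of 15 DP libraries below the DR median (log2 fold change -0.30 ± 0.0797 SE, adjusted p = 0.00218). *Cyp2ab1* was low in both groups, at 0.958, 1.45 and 1.98 CPM in DP and 1.32, 1.89 and 3.06 CPM in DR (log2 fold change -0.46 ± 0.123 SE, adjusted p = 0.00188). *Cyp2b23* was near the filter's limit, at 0.165, 0.3404 and 0.657 CPM in DP and 0, 0.506 and 0.916 CPM in DR, and it had no count in DR replicate 7. It was 1.52-fold lower in DP (log2 fold change -0.61 ± 0.246 SE, adjusted p = 0.0364), but the call was lost when any of DP replicates 3, 9, 10 or 12 or DR replicates 1, 4, 14 or 15 was left out, with an adjusted p of up to 0.0675. With limma-voom its adjusted p was 0.362.

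One family 2 call rested on DR replicate 7. *Cyp2f2*, which oxidises naphthalene in airway and liver cells, stood at 0, 0.2395 and 1.01 CPM in DP and 0, 0.353 and 57.5 CPM in DR. The DR maximum was DR replicate 7, and the next highest DR library held 1.17 CPM. With all libraries the gene was called (log2 fold change -3.60 ± 0.925 SE, adjusted p = 0.00139), and without DR replicate 7 it was not (log2 fold change -0.24, adjusted p = 0.651). DESeq2 and limma-voom on all libraries gave adjusted p = 0.688 and 0.429. DESeq2 as run replaces outlying counts and limma-voom used quality weights, so neither treats the value of DR replicate 7 as edgeR does. Its exons overlap *Gm15883* on the other strand.

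Of the 3 family 2 genes not called, 2 were also high in DR replicate 7. *Cyp2c70*, which makes muricholic acids in mouse liver, held 23.5 CPM there and 2.53 CPM or less in the other DR libraries. Its log2 fold change turned from -0.75 to 0.21 without that library, with adjusted p = 0.108 and 0.238. *Cyp2c23*, an arachidonic acid epoxygenase, held 21.2 CPM there against medians of 3.91 in DP and 4.005 in DR (adjusted p = 0.134). *Cyp2s1*, a P450 of epithelia outside the liver, stood at 5.67, 7.66 and 11.4 CPM in DP and 5.18, 8.06 and 12.3 CPM in DR (adjusted p = 0.918), and its exons overlap *Gm26707* on the other strand.

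Family 4, the fatty acid omega-hydroxylases, holds 20 members, of which 9 were tested, 0 were higher, 3 were lower and 6 were not called. Over all genes tested, 28.2% were higher and 27.3% lower. The count of higher genes was also 0 at an unadjusted p below 0.05, by DESeq2 and by limma-voom. *Cyp4v3* (chr8:45304944-45333216, minus strand, GRCm38) is the mouse counterpart of human CYP4V2, a fatty acid hydroxylase whose loss causes a crystalline disease of the retina. It stood at 66.8, 77.8 and 114.3 CPM in DP and 87.6, 114.9 and 147 CPM in DR. All 15 DP libraries lay below the DR median, and DP replicate 6, which was also the highest DP library for *Cyp2e1*, stood apart from the other 14. *Cyp4v3* was 1.43-fold lower in DP (log2 fold change -0.51 ± 0.06675 SE, adjusted p = 1.27e-07), and its exons overlap *Gm45753* on the same strand.

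*Cyp4f17* stood at 21.3, 27.03 and 33.1 CPM in DP and 27.6, 32.03 and 40.98 CPM in DR. The ranges overlapped, with 14 of 15 DP libraries below the DR median, and the gene was 1.202-fold lower in DP (log2 fold change -0.27 ± 0.0571 SE, adjusted p = 0.000211). *Cyp4f14*, which hydroxylates leukotriene B4, was close to absent from most libraries, at 0, 0.2385 and 0.4301 CPM in DP and 0, 0.483 and 18.1 CPM in DR. DR replicate 7 alone held 18.1 CPM, and the next highest DR library 0.742. The log2 fold change of -2.83 ± 0.7195 SE (adjusted p = 0.00124) shrank to -0.94 ± 0.374 without it, which still passed (adjusted p = 0.0328). *Cyp4f14* reached the filter's limit in 3 DP and 11 DR libraries, so it was tested mainly through DR, where it was higher. With limma-voom on all libraries the adjusted p was 0.171.

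The family 4 gene most abundant per kilobase of exon in both groups did not differ detectably. *Cyp4b1*, which oxidises fatty acids and some foreign amines, stood at 89.1, 106.9 and 150.6 CPM in DP and 85.05, 108.5 and 138.5 CPM in DR, a nearly complete overlap (log2 fold change 0.03 ± 0.0757 SE, adjusted p = 0.794). *Cyp4f13* and *Cyp4f16*, relatives of the leukotriene hydroxylases, had medians of 18.99 and 18.9 CPM in DP and 20.6 and 19.03 in DR. Their ranges overlapped almost fully, with adjusted p = 0.169 and 0.745. *Cyp4f18*, the leukotriene hydroxylase of neutrophils, had a median of 0.989 CPM in DP against 0.965 CPM in DR (adjusted p = 0.601), and its exons overlap *Zfp961* on the other strand. *Cyp4f39*, which hydroxylates very long fatty acids of the skin barrier, and *Cyp4f37* reached at most 1.24 and 0.767 CPM, both in DP, with adjusted p = 0.614 and 0.656.

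Members higher in DP came from 4 other groups of enzymes. *Cyp1b1* (chr17:79701537-79715061, minus strand, GRCm38) is induced through the aryl hydrocarbon receptor, is found mainly outside the liver and hydroxylates oestrogens. It stood at 36.1, 46.8 and 70.2 CPM in DP and 21, 28.7 and 38.1 CPM in DR. The ranges met only between DP replicate 14, at 36.1 CPM, and DR replicates 8 and 12, at 38.1 and 36.2. The gene was 1.68-fold higher in DP (log2 fold change 0.75 ± 0.0856 SE, adjusted p = 1.42e-08). Of 20 macrophage markers 18 were higher in DP too, and their part in this difference was not tested. The other 2 members of family 1, *Cyp1a1* and *Cyp1a2*, did not pass the filter, and *Cyp1a1*, the classic target of the same receptor, held at most 0.394 CPM in DP and 0.3525 in DR.

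Among 6 sterol and bile acid P450s, 4 were tested, of which 1 was higher, 0 were lower and 3 were not called. Of all genes tested, 28.2% were higher and 27.3% lower. The count of lower genes was also 0 at an unadjusted p below 0.05, by DESeq2 and by limma-voom. *Cyp8b1*, which sets the share of cholic acid in bile and did not pass the filter, held 10.1 CPM in DR replicate 7 and 0.6199 CPM or less elsewhere. It passed the filter in 17 of the 30 fits that each left out 1 library and was called lower in all 17 (adjusted p of up to 0.0345). All 17 hold DR replicate 7, and *Cyp8b1* was not tested without that library. Its mean was 0.3135 CPM in DP and 0.3042 in DR without replicate 7. *Cyp7b1*, which hydroxylates oxysterols, stood at 3.44, 4.33 and 6.54 CPM in DP and 1.45, 2.51 and 6.13 CPM in DR. The DR maximum was DR replicate 7, the next highest DR library held 4.53 CPM, and all 15 DP libraries lay above the DR median. It was 1.58-fold higher in DP (log2 fold change 0.66 ± 0.165 SE, adjusted p = 0.00106). *Cyp27a1*, the mitochondrial sterol hydroxylase, stood at 27.96, 33.5 and 39.5 CPM in DP and 28.1, 34.1 and 46.7 CPM in DR (adjusted p = 0.645). *Cyp39a1* and *Cyp46a1*, which act on and make a brain-derived oxysterol, had medians of 5.03 and 1.403 CPM in DP and 5.07 and 1.36 in DR, with adjusted p = 0.28 and 0.643.

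Of 6 P450s of steroid hormone synthesis, 2 were tested and both were called higher, at levels near the filter's limit. That count stands beside 28.2% of all genes tested that were called higher. *Cyp11a1* cleaves the side chain of cholesterol, the first step towards steroid hormones. It stood at 0.524, 0.802 and 1.499 CPM in DP and 0.205, 0.565 and 0.928 CPM in DR, with 14 of 15 DP libraries above the DR median (log2 fold change 0.68 ± 0.18 SE, adjusted p = 0.00195). *Cyp21a1*, which acts on progesterone on the way to corticosterone, stood at 0.558, 0.742 and 1.21 CPM in DP and 0, 0.534 and 1.06 CPM in DR, and 15 of 15 DP libraries lay above the DR median. Its call was marginal (log2 fold change 0.50 ± 0.213 SE, adjusted p = 0.0473): it was lost in 22 of 30 fits that each left out 1 library and held only without DP replicate 1, 2, 5 or 15 or DR replicate 4, 7, 9 or 15, with an adjusted p of up to 0.0844. Of its transcript windows of 50 bases, 21.3% also occur in other genes, chiefly the pseudogene *Cyp21a2-ps*, and its exons overlap *Tnxa* on the other strand. Those of *Cyp11a1* overlap *Gm17322* on the same strand.

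Of 15 markers of steroidogenic gonad and adrenal, 9 were tested, 0 were called higher and 3 lower, beside 28.2% and 27.3% of all genes tested. The summed level of the 15 was 230.5 to 288.9 CPM in DP and 232.5 to 314.2 in DR. The list holds *Fdx1*, which is also counted among the electron donors below, so the sum does not measure RNA of these organs alone. Neither DESeq2 nor limma-voom called one higher, and none was higher at an unadjusted p below 0.05. Of the 15, only the gonadal receptor *Fshr* and the adrenal factor *Nr0b1* had no count in any library, and the steroid factor *Nr5a1* stayed at 0.378 CPM or less. These genes do not stand for the list, of which 9 passed the filter. Whether RNA of these organs was present was not tested. Markers of oviduct and uterus epithelium summed to 5.425 to 14.7 CPM in DP and 5.97 to 22.6 in DR, and the DR maximum fell in DR replicate 7. Of 4 tested, the secreted protein gene *Ltf* was higher and the keratin gene *Krt8* lower (adjusted p = 0.0328), and without DR replicate 7 *Krt8* was not called (adjusted p = 0.0866). Both were named after their values were seen.

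The vitamin D group has 3 members. *Cyp2r1*, which carries out the first activating hydroxylation of vitamin D, stood at 1.26, 1.67 and 2.39 CPM in DP and 0.787, 1.16 and 1.95 CPM in DR. The ranges overlapped, but every DP library lay above the DR median, and the gene was 1.36-fold higher in DP (log2 fold change 0.45 ± 0.121 SE, adjusted p = 0.00219). *Cyp27b1*, which makes the active hormone, did not pass the filter and held at most 0.414 CPM. *Cyp26b1*, which breaks down retinoic acid, stood at 2.42, 4.19 and 7.94 CPM in DP and 1.02, 4.83 and 7.91 CPM in DR and was not called (adjusted p = 0.826), and its relatives *Cyp26a1* and *Cyp26c1* did not pass the filter. *Cyp20a1* stood at 23.2, 25.99 and 29.8 CPM in DP and 23.2, 25.2 and 28.2 CPM in DR (adjusted p = 0.251).

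**Figure D2:**
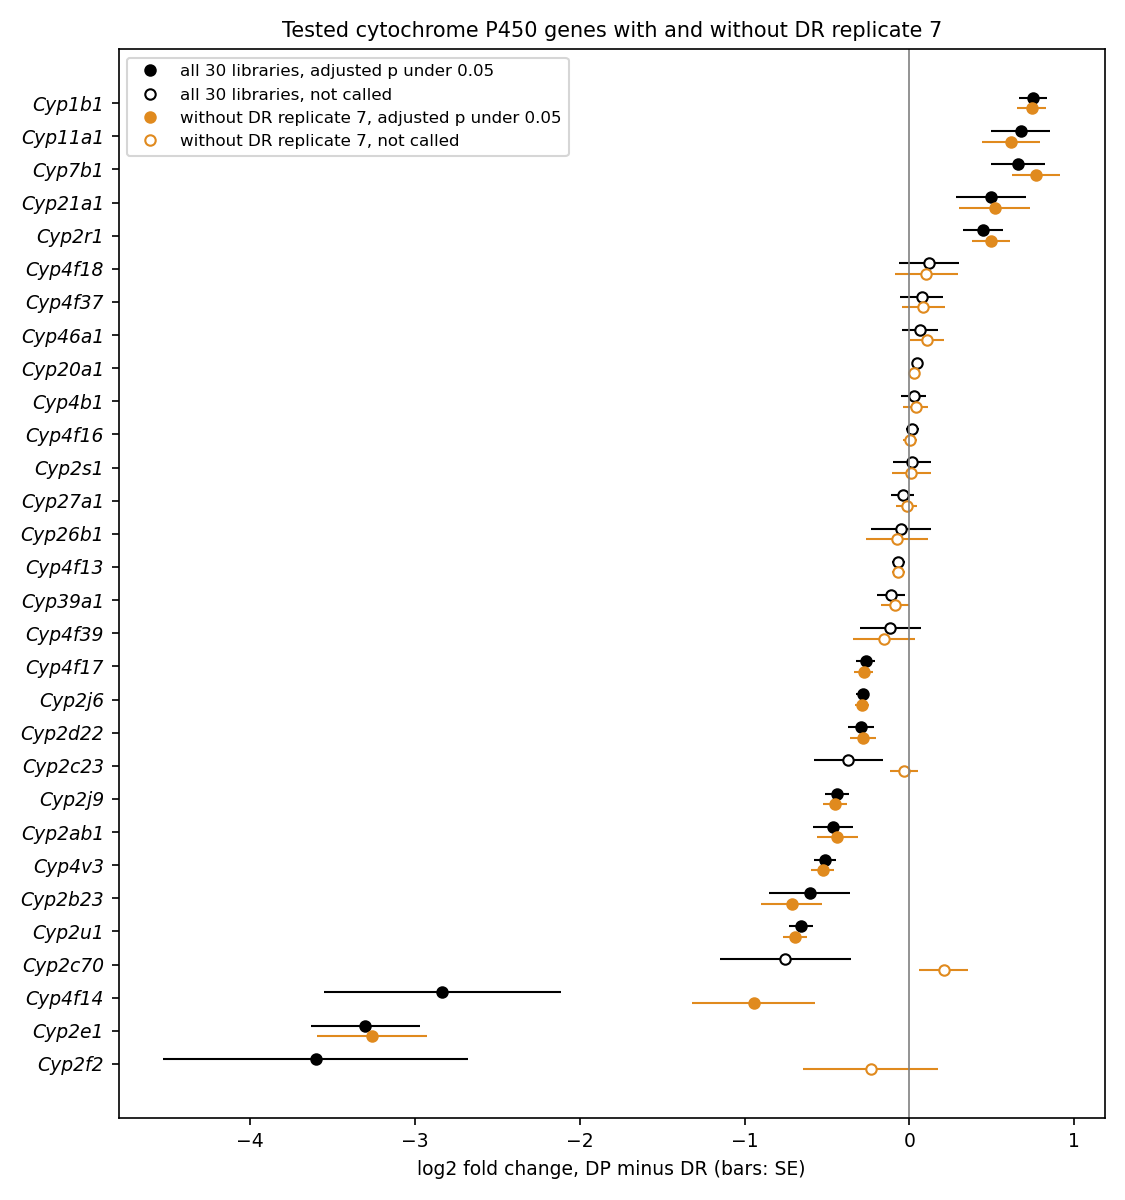
log2 fold change of DP minus DR with its SE for the 30 tested P450 genes, from all 30 libraries (black) and without DR replicate 7 (orange); filled points have an adjusted p under 0.05. *Cyp2e1* stays near -3.26 without that library, whereas *Cyp2f2* moves to -0.24 and *Cyp4f14* to -0.94.

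DR replicate 7 held a set of liver P450s that the other libraries nearly lacked. In 41 of the 86 members with any count it was the highest library, with at least 10 counts and at least 5 times the next library. These 41 ranged from 0.433 to 57.5 CPM there, while no other library exceeded 2.53 CPM for any of them. They comprise 23 of family 2, 8 of the 9 members of family 3 (all but *Cyp3a57*), 6 of family 4, *Cyp1a2*, *Cyp7a1*, *Cyp8b1* and *Cyp17a1*. Only 3 of the 41, *Cyp2f2*, *Cyp4f14* and *Cyp2c70*, passed the filter.

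Of the 6 of highest level among the 41, *Cyp2f2* led at 57.5 CPM, followed by *Cyp4a10* and *Cyp4a14*, liver hydroxylases of fatty acids that PPAR alpha induces, at 55.99 and 55.7 CPM. *Cyp2d26* followed at 54.1 CPM, the drug-oxidising *Cyp3a41a* at 46.5 and *Cyp2c69* at 43.5. Elsewhere *Cyp4a10* reached at most 0.739 CPM, and *Cyp2c69* had no count. *Cyp3a41a* shares 98.6% of its transcript windows of 50 bases with other genes, chiefly *Cyp3a41b*, and *Cyp2c69* shares 54.3%, chiefly with *Cyp2c40* and *Cyp2c67*, so the split of counts within these copies is uncertain.

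Several genes of this set were named after their values were seen, because their biology is familiar. *Cyp7a1*, the rate-limiting enzyme of bile acid synthesis, had 74 counts in DR replicate 7 (2.67 CPM) and none in the other 29 libraries. 9 liver genes known in mice as female-predominant, *Cyp2a4*, *Cyp2b9*, *Cyp2b13*, *Cyp2c40*, *Cyp2c69*, *Cyp3a16*, *Cyp3a41a*, *Cyp3a41b* and *Cyp3a44*, all belonged to the set, at 3.82 to 46.5 CPM. Of male-predominant genes, *Cyp4a12a* held 0.216 CPM in the same library, whereas *Cyp2d9*, which belonged to the set, held 3.1 CPM. The genes named here are not a full list of either kind.

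**Figure D3:**
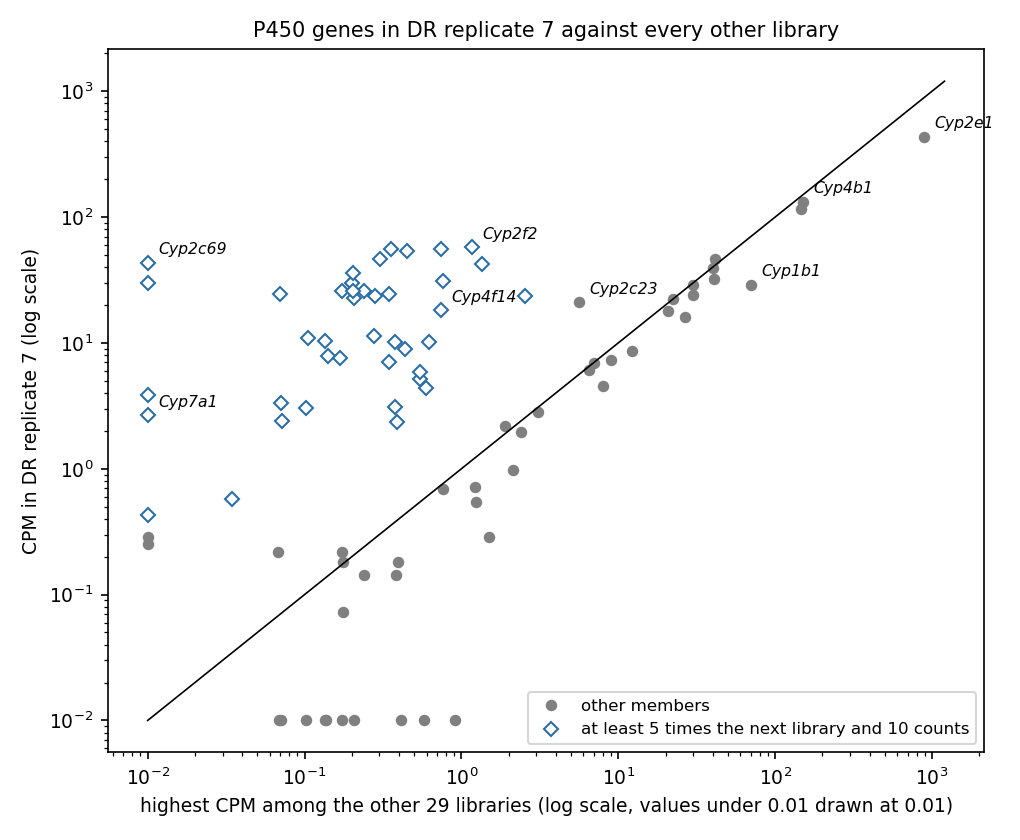
CPM in DR replicate 7 against the highest CPM among the other 29 libraries for the 86 P450 genes with a count, both axes logarithmic, with the line of equality. The 41 open diamonds lie far above the line, whereas *Cyp2e1*, *Cyp4b1* and *Cyp1b1* lie below it.

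Away from DR replicate 7 the remaining 18 untested members with counts were scarce, the highest mean of a group being 0.253 CPM, of *Cyp2b10* in DP. No library exceeded 0.5735 CPM for any of these 18. *Cyp2b10*, a target of the receptor CAR in liver, reached 0.5735 CPM in DP and 0.423 in DR.

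Of the 100 members, 77 lie in 10 clusters of neighbours with gaps under 1 Mb, and neighbours differed in level and in call. The *Cyp4f* cluster on chromosome 17 (chr17:32452723-32947402, GRCm38) holds 8 members, of which 6 were tested. *Cyp4f17* and *Cyp4f14* were lower in DP, whereas *Cyp4f16*, *Cyp4f37*, *Cyp4f39* and *Cyp4f13*, within the same 495 kb, were not called. *Cyp4f16* shares 17.4% of its transcript windows of 50 bases with other genes and *Cyp4f37* 19.7%. The cluster of *Cyp4a* and *Cyp4x* genes on chromosome 4 spans 541 kb and 11 members, of which only *Cyp4b1*, at its edge, was tested. The *Cyp2c* cluster on chromosome 19 holds 14 members, of which only *Cyp2c70* was tested and 10 belonged to the set high in DR replicate 7.

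Divided by exon length, levels can be set against each other between genes. Per kilobase of exon, *Cyp2e1* led in DR at 131.3 mean CPM, or 126.3 without DR replicate 7. Next in DR with all libraries came *Cyp4b1* at 47.9, *Cyp4v3* at 30.4, *Cyp27a1* at 16.01 and *Cyp20a1* at 11.2. In DP the order began with *Cyp4b1* at 48.7, *Cyp4v3* at 21.3 and *Cyp27a1* at 15.6, and *Cyp2e1* was the fourth at 13.3. *Cyp1b1* held 4.99 in DR and 8.397 in DP, which moved it ahead of *Cyp2d22*, *Cyp2j6* and *Cyp4f16*. At the lower end of the tested members, *Cyp11a1* held 0.119 in DR and 0.191 in DP.

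Genes that work with P450 enzymes were examined in 4 lists with 55 genes, of which 54 were found and 50 tested. 9 were higher in DP, 27 lower and 14 not called, and without DR replicate 7 the counts were 9, 26 and 15. Among all genes tested, 28.2% were higher and 27.3% lower, which are the shares to set beside the counts of each list. The median log2 fold change was -0.05 over electron donors and helpers, -0.07 over haem genes, -0.48 over epoxide hydrolases and conjugating enzymes and -0.19 over receptors. Among 11 electron donors and helpers 3 were higher and 5 lower. *Cyb5a*, the cytochrome b5 that feeds electrons to microsomal P450s, stood at 154.8, 176.8 and 193.4 CPM in DP and 179.6, 212.9 and 243.3 CPM in DR (log2 fold change -0.28 ± 0.0385 SE, adjusted p = 3.49e-07). The reductases *Cyb5r4* and *Cyb5r1* were 1.23-fold and 1.12-fold higher (adjusted p = 2.15e-07 and 2.44e-06). *Por*, the reductase on which all microsomal P450s depend and which was named after its values were seen, was 1.12-fold lower at medians of 199.5 and 218.8 CPM (adjusted p = 0.0236).

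Of 12 genes that make or break down haem, the iron-bearing group of every P450, 4 were higher and 5 lower. *Hmox1*, which opens the haem ring, stood at 106, 128 and 154.2 CPM in DP and 58.9, 80 and 109.8 CPM in DR (log2 fold change 0.63 ± 0.06501 SE, adjusted p = 2.96e-09), and the ranges met only at their edges. *Fech*, which inserts the iron, stood at 80.1, 91.4 and 97.2 CPM in DP and 100.4, 104.7 and 113.6 CPM in DR, with no overlap (log2 fold change -0.24 ± 0.0255 SE, adjusted p = 5.13e-09). *Alad*, an early step of haem synthesis, was 1.398-fold lower (adjusted p = 5.31e-08).

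The list of epoxide hydrolases and conjugating enzymes, which take on the products of P450 reactions, had 0 genes higher and 11 lower of 13, and 10 lower without DR replicate 7. None of the 13 was called higher by DESeq2 or limma-voom, or was higher at an unadjusted p below 0.05. *Gsta4*, which joins glutathione to lipid aldehydes, stood at 9.63, 14.1 and 22.7 CPM in DP and 17.6, 30.2 and 37.8 CPM in DR (log2 fold change -1.01 ± 0.113 SE, adjusted p = 1.10e-08). *Sult1a1*, a sulphotransferase of phenols, was 1.92-fold lower (adjusted p = 7.70e-09), and *Ephx2*, which hydrolyses fatty acid epoxides made by P450s, 1.42-fold lower (adjusted p = 1.82e-06). The glucuronosyltransferase *Ugt1a1* was called with all libraries (adjusted p = 0.0329) but not without DR replicate 7 (adjusted p = 0.134), which held 74.2 CPM, and it shares exons with *Ugt1a6a*.

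Of 18 receptors that control P450 genes 14 were tested, 2 were higher, 6 lower and 6 not called. *Rxra*, the common partner of many of them, stood at 149.6, 162.9 and 183.1 CPM in DP and 173.6, 213 and 249.8 CPM in DR (log2 fold change -0.40 ± 0.0387 SE, adjusted p = 1.26e-09). *Ppara*, the fatty acid receptor that drives liver *Cyp4a* genes, was 1.95-fold lower at medians of 2.55 and 4.84 CPM (adjusted p = 5.93e-07). *Tiparp*, a target and repressor of the aryl hydrocarbon receptor, was 1.24-fold lower (adjusted p = 2.39e-08), whereas *Ahrr*, another target and repressor, was 1.45-fold higher at medians of 1.26 and 0.846 CPM (adjusted p = 0.00188). The receptor itself, *Ahr*, had medians of 11.2 and 11.02 CPM (adjusted p = 0.889). *Ahrr* and *Ahr* were named after their values were seen. The liver factor *Hnf4a* held 20.2 CPM in DR replicate 7 and 0.302 or less elsewhere.

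Marker lists of cell types moved with the groups too, beside 28.2% of all genes tested that were higher and 27.3% that were lower. Of 18 adipocyte markers 17 were lower in DP, with a median log2 fold change of -0.57 over the list, against 0.97 over the macrophage list. Of 20 macrophage markers 18 were higher and 1 lower, and their summed level was 6139 to 10190 CPM in DP and 2165 to 5867 in DR. Of 12 fibroblast and progenitor markers 8 were higher and 1 lower, summing to 6400 to 10610 CPM in DP and 4903 to 7537 in DR. All 10 endothelial markers and 8 of 9 mesothelial markers were lower, with sums of 683.9 to 1075 CPM in DP and 892.9 to 1292 in DR for the first and 58.2 to 161.3 CPM in DP and 92.45 to 270.2 in DR for the second. All 12 tested hepatocyte markers were lower with all libraries, and 3 were lower and 1 higher without DR replicate 7. How far these shifts account for the differences in P450 genes was not tested.

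Within each group, the level of *Cyp2e1* and *Cyp1b1* was set against the mean log2(CPM + 0.5) of the adipocyte, macrophage and fibroblast lists, a choice made after the values were seen, giving 12 relations over 15 libraries each. *Cyp2e1* rose with the adipocyte score, with r = 0.77 and rho = 0.71 in DP (adjusted permutation p = 0.00261 and 0.0101) and r = 0.81 and rho = 0.68 in DR (adjusted permutation p = 0.00132 and 0.0133). Without the 2 libraries farthest from the median score, r was 0.54 in DP and 0.68 in DR. With the macrophage score *Cyp2e1* gave r = -0.86 and rho = -0.81 in DR (adjusted permutation p = 0.00048 and 0.002), but r = -0.20 and rho = -0.23 in DP (adjusted permutation p = 0.503 and 0.44), and r was -0.75 and -0.27 without the 2 farthest libraries. In DR without replicate 7 (n = 14), *Cyp2e1* gave r = 0.92 and rho = 0.85 (adjusted permutation p = 4.00e-05 and 0.00064) with the adipocyte score and r = -0.95 and rho = -0.92 (adjusted permutation p = 4.00e-05 and 0.0003) with the macrophage score. The raw permutation p of both Pearson values was 1e-05, the smallest that the permutations can give.

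*Cyp1b1* took the opposite signs. With the adipocyte score it gave r = -0.74 and rho = -0.81 in DP (adjusted permutation p = 0.00338 and 0.002) and r = -0.75 and rho = -0.77 in DR (adjusted permutation p = 0.003 and 0.0033). With the macrophage score it gave r = 0.55 and rho = 0.64 in DP (adjusted permutation p = 0.0492 and 0.0206) and r = 0.89 and rho = 0.89 in DR (adjusted permutation p = 0.00024 and 0.00036). Without the 2 farthest libraries r was -0.69 and -0.52 for adipocyte and 0.41 and 0.82 for macrophage markers. With the fibroblast score *Cyp1b1* gave r = 0.67 and rho = 0.60 in DP (adjusted permutation p = 0.0112 and 0.0291) and r = 0.33 and rho = 0.34 in DR (adjusted permutation p = 0.272 and 0.26). The corresponding *Cyp2e1* values were r = -0.54 and rho = -0.50 in DP (adjusted permutation p = 0.0492 and 0.0763) and r = -0.17 and rho = -0.08 in DR (adjusted permutation p = 0.546 and 0.781). In DR without replicate 7, *Cyp1b1* gave r = -0.76 and rho = -0.78 (adjusted permutation p = 0.00326 and 0.00403) with the adipocyte and r = 0.90 and rho = 0.88 (adjusted permutation p = 4.00e-05 and 0.0003) with the macrophage score. With the fibroblast score, *Cyp1b1* had r = 0.34 and *Cyp2e1* r = -0.25 in those 14 libraries, neither of which passed the threshold.

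**Figure D4:**
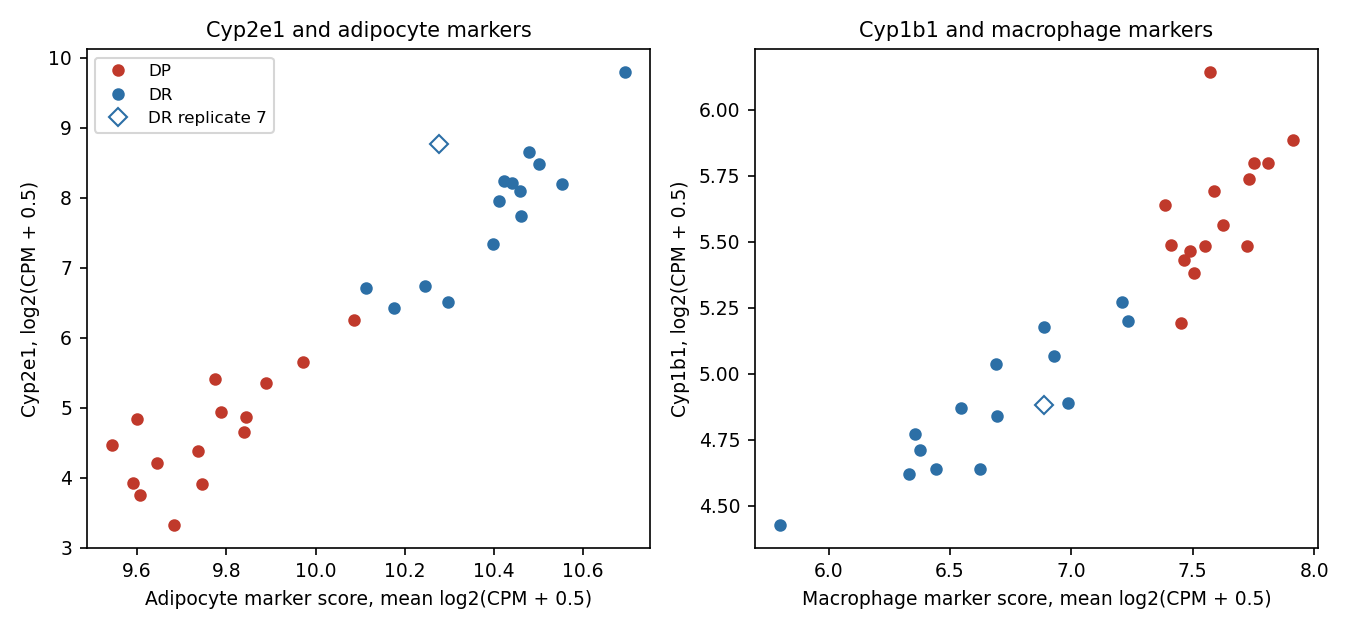
log2(CPM + 0.5) of *Cyp2e1* against the adipocyte score (left) and of *Cyp1b1* against the macrophage score (right) in 15 DP (red) and 15 DR (blue) libraries, with DR replicate 7 as an open diamond. Within DR, r was 0.81 for *Cyp2e1* and 0.89 for *Cyp1b1*, and DP libraries lie at a lower adipocyte and a higher macrophage score than DR libraries, without overlap.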

How the data were processed

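RNA of gWAT from 15 DP and 15 DR mice was analysed, 1 library per animal. The authors deposited 1 table of estimated counts, already whole numbers, which they made with StringTie 2.1.3b on GRCm38.p6 per the submitters' notes. For the aligner, the annotation and the use of strand the sources used here give nothing, so overlapping and near-identical genes cannot be told apart. All 30 count columns were used. Groups were compared with edgeR 4.0.16 (R 4.3.3): TMM factors, filterByExpr (minimum count 10, minimum total 15), the quasi-likelihood F test and Benjamini-Hochberg adjustment over all genes tested at 0.05. The SE is the fitted change divided by the square root of F. GENCODE M21 gave positions and exon lengths. The labels name no batch. The members and gene lists were chosen with earlier results of these data known. Members passing the filter are named with values, partner genes as up to 3 per list of smallest p. On simulated data edgeR recovered 43 of 50 genes changed 1.5-fold and 21 of 50 changed 1.2-fold, with 4.79% of calls false (17332 genes). Far fewer genes were changed in the simulation than were called in the data, so these shares may not carry over. Alternatives were DESeq2 1.42.0 (the study's tool), limma-voom with quality weights (limma 3.58.1), other scaling and filters, a robust fit and the omission of DR replicate 7. Omitting each other library in turn, and DR replicate 7 from the relations, was added after the data were seen.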

Additional observations from a re-analysis of the deposited data

How the results depend on the processing

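The 5 members called higher and 11 called lower became 5 and 45 with no filter on low counts, and 37 of those 45 belong to the set high in DR replicate 7. With mean CPM over 1 they were 3 and 18, of which 10 belong to that set, and with mean FPKM over 1 the higher count was 2. At a fold of at least 1.5 they were 3 and 5, and the partner counts, 9 higher and 27 lower, became 1 and 5. Leaving out each library in turn gave 4 to 5 members higher, 10 to 13 lower, 7 to 10 partners higher and 26 to 29 lower. *Cyp2c70* turned to 0.20 with DESeq2, which as run replaces outlying counts, and to 0.21 without DR replicate 7. Leaving out single libraries moved the Cyp4b1 log2 fold change over -0.0231 to 0.045, the Cyp2s1 log2 fold change over -0.038 to 0.0615, the Cyp4f16 log2 fold change over -0.0132 to 0.0238 and the Cyp2c70 log2 fold change over -0.837 to 0.207, none of which was called. *Cyp4f13* passed without DR replicate 3 only. *Cyp21a1* missed the threshold with no filter and with relative log expression factors, and *Cyp2b23* with no filter. No paired analysis was possible because the labels give no replicate numbers that the groups share. For genes under 1 CPM, a library held few counts, and small differences were not detectable at this depth.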

Other observations

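P450 enzymes outside the rule behaved in different ways, and these genes were chosen after their values were seen. *Tbxas1*, the P450 that makes thromboxane, stood at 43.5, 51.6 and 68.2 CPM in DP and 15.5, 28.5 and 43.9 CPM in DR, so the groups nearly parted, and it was 1.865-fold higher in DP (log2 fold change 0.90 ± 0.117 SE, adjusted p = 1.25e-07). *Cyp51*, the demethylase of cholesterol synthesis, was 1.37-fold higher at medians of 46.7 and 33.8 CPM (adjusted p = 1.68e-05). *Ptgis*, which makes prostacyclin, had medians of 22.4 and 23.65 CPM and was not called by edgeR (adjusted p = 0.0628), but it was called lower without DR replicate 7 (adjusted p = 0.0467) and by DESeq2 (adjusted p = 0.0435).

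*Cyp4f15*, which did not pass the filter, had a mean of 0.239 CPM in DP and 0.0174 in DR without replicate 7, and in that replicate it reached 4.36 CPM. Of 33 Cyp pseudogene rows marked -ps, 23 had no count, 2 passed the filter and 6 were highest in DR replicate 7.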
